A study of Mus musculus with 3 samples.

Results

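A set of 10 genes of the Wnt pathway was followed through 1 single-cell culture of mouse esophageal cells: the ligand genes Wnt4, Wnt5a, Wnt7a, Wnt7b and Wnt10a, the nuclear factor genes Lef1, Tcf7l1 and Tcf7l2, the β-catenin gene Ctnnb1, and Axin2. The genes were taken by symbol, and these 10 are 10 of the 32287 features counted. Axin2 and Ctnnb1 are neither Wnt ligands nor TCF/LEF factors; they were kept with the group as parts of the same pathway. All 10 had UMIs in the cells analysed, and all 10 reached the lowest level set for comparing the cell classes.

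The cells, called PC in the labels, came from esophageal organoids of Trp53 floxed/floxed mice. The p53 gene Trp53 was deleted with an adenovirus carrying Cre and EGFP, and Cdkn2a, which encodes p16 and p19Arf, was then knocked out by CRISPR/Cas9. After dissociation the cells grew in DMEM with 10% FBS and Y-27632, which was later withdrawn. Cells that express Cas9 constitutively received a barcode library by lipofection, were passaged further, and were sorted as live RFP-positive cells before droplet sequencing of RNA 3' ends. Every cell compared below therefore shares the same knockouts, Cas9, transfection and sort. There was 1 culture and 1 deposited count matrix, so there were no replicates, and no unedited cells to compare with. The related PCN organoids were not analysed here.

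Wnt proteins are secreted lipid-modified signals that bind Frizzled receptors together with LRP co-receptors, or with receptors such as ROR1, ROR2 and RYK. In the canonical branch a signal spares β-catenin from a destruction complex that holds AXIN, APC and GSK3. β-catenin then reaches the nucleus and joins TCF/LEF factors at target genes, of which Axin2, itself a brake on the pathway, is the standard readout. WNT5A is best known for signalling without β-catenin, and TCF7L1 is best known as a repressor.

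The matrix held 18116 barcodes, none of them repeated, and 14925 cells were kept, with a median of 2955 UMIs and 1499 genes per cell. A UMI count is the number of distinct RNA molecules captured. Clustering without the Wnt pathway genes gave 14 clusters, numbered by size. Of these, 10 clusters with 12318 cells (82.5%) and 37829589 UMIs were called epithelial-like: all 12 epithelial markers were each found in at least 25% of the class, and none of the 12 mesenchymal markers was. Cluster 4, with 1864 cells (12.5%) and 6335817 UMIs, was called mesenchymal-like on 3 of 12 mesenchymal markers, with a summed level of 1711 CPM against 14.0 in the epithelial-like cells. CPM is UMIs of a gene per 1000000 UMIs of the class. Lum and Thy1 had no UMI in cluster 4, and its leading genes were Grem1, Ccn5, Cacna1c, Adam19 and Col5a1. Clusters 7, 10 and 13, with 743 cells together, stayed unnamed. The 2 classes had similar median depth, 2954 and 3318 UMIs per cell. Markers of immune, endothelial, glial or melanocyte, and muscle cells summed to at most 14.5 CPM in either class, and none was found in 25% of a class.

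The levels of 3 marker lists stand beside every comparison of these classes. Epithelial markers summed to 923 CPM in the mesenchymal-like cells against 6417 in the epithelial-like ones, with 3 of 12 detected in at least 25% of the mesenchymal-like cells and none at 0. Markers of dividing cells summed to 68.2 CPM in the mesenchymal-like and 748 in the epithelial-like cells. Markers of squamous differentiation summed to 515 and 264 CPM, with Krt4, Sprr3, Krt1 and Cnfn at 0 in the mesenchymal-like cells. Without the dividing clusters 7 of 10 members still passed the 2-fold rule used below, beside 21.7% of all genes compared. The log2 ratios of mesenchymal-like over epithelial-like levels were then 4.09 for Lef1, 3.01 for Wnt5a and -3.01 for Wnt4. Values without the cells that carry markers of both classes are given with the ligands. The part of the squamous markers was not tested.

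Both classes carried nearly the same total of Wnt ligand transcripts, made up of different ligands. The 19 Wnt ligand genes summed to 241 CPM in the mesenchymal-like cells (95% Poisson interval 229 to 253) and to 239 CPM in the epithelial-like cells (234 to 244). Wnt5a supplied 74.6% of the ligand UMIs in the mesenchymal-like cells (exact 95% binomial interval 72.3 to 76.7) and 8.96% in the epithelial-like cells (8.38 to 9.56). Wnt4 supplied 47.7% (46.7 to 48.7) and Wnt10a 18.3% (17.5 to 19.1) of the epithelial-like ligand UMIs, against 5.57% and 4.72% in the mesenchymal-like cells. All intervals and limits here cover counting error only, and they say nothing of the spread between cultures. RNA was sequenced from 3' ends, these shares carry no correction for gene length, and genes may differ in how well they are caught. No source used here says whether introns were counted, a limit that also holds for the TCF/LEF shares below.

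**Figure D1:**
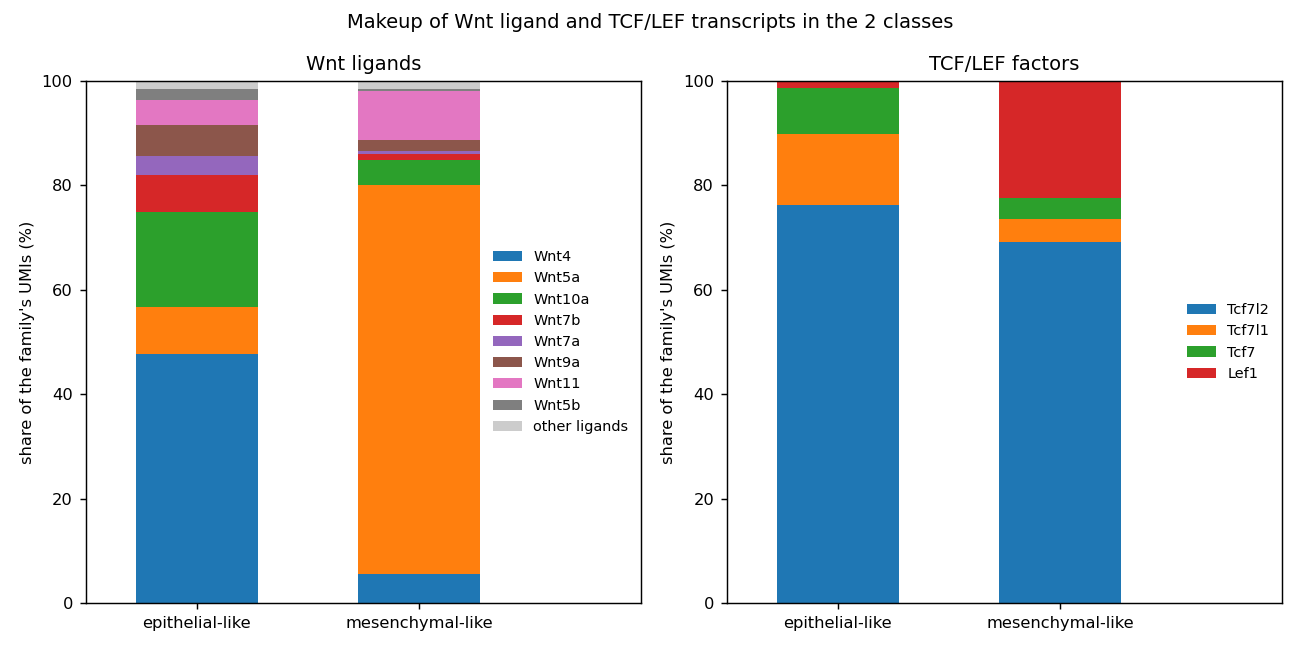
Share of the Wnt ligand UMIs (left) and of the TCF/LEF UMIs (right) that each gene supplied in the epithelial-like and mesenchymal-like cells; bars run from 0 to 100% and each colour is 1 gene. Wnt5a fills 74.6% of the mesenchymal-like ligand bar, Wnt4 fills 47.7% of the epithelial-like one, and Lef1 takes 22.4% of the mesenchymal-like TCF/LEF bar.

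The nuclear factors also had nearly the same total in both classes, but with the same main gene. Lef1, Tcf7, Tcf7l1 and Tcf7l2 together reached 149.8 CPM in the mesenchymal-like cells (140.4 to 159.6) and 150.3 CPM in the epithelial-like cells (146 to 154). Tcf7l2 was the main gene in both, with 69.2% and 76.3% of the family's UMIs. The remainder was mostly Lef1 in the mesenchymal-like cells, at 22.4% (19.8 to 25.2), and mostly Tcf7l1 and Tcf7 in the epithelial-like cells, at 13.5% (12.7 to 14.4) and 8.95% (8.23 to 9.73).

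A gene was counted as different between the classes at a ratio of at least 2 with at least 5 CPM in the higher class. With 1 culture this is a rule of size, not a test. Of the 10 members, 7 passed it, 2 higher in mesenchymal-like cells and 5 higher in epithelial-like cells. Over the 10729 genes compared, 23.1% passed, 11.4% as higher in mesenchymal-like and 11.7% as higher in epithelial-like cells. The median log2 ratio of mesenchymal-like over epithelial-like levels was -0.88 over the members and -0.03 over all genes compared. The members were named with results of these data known, so the count describes them and carries no test.

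**Figure D2:**
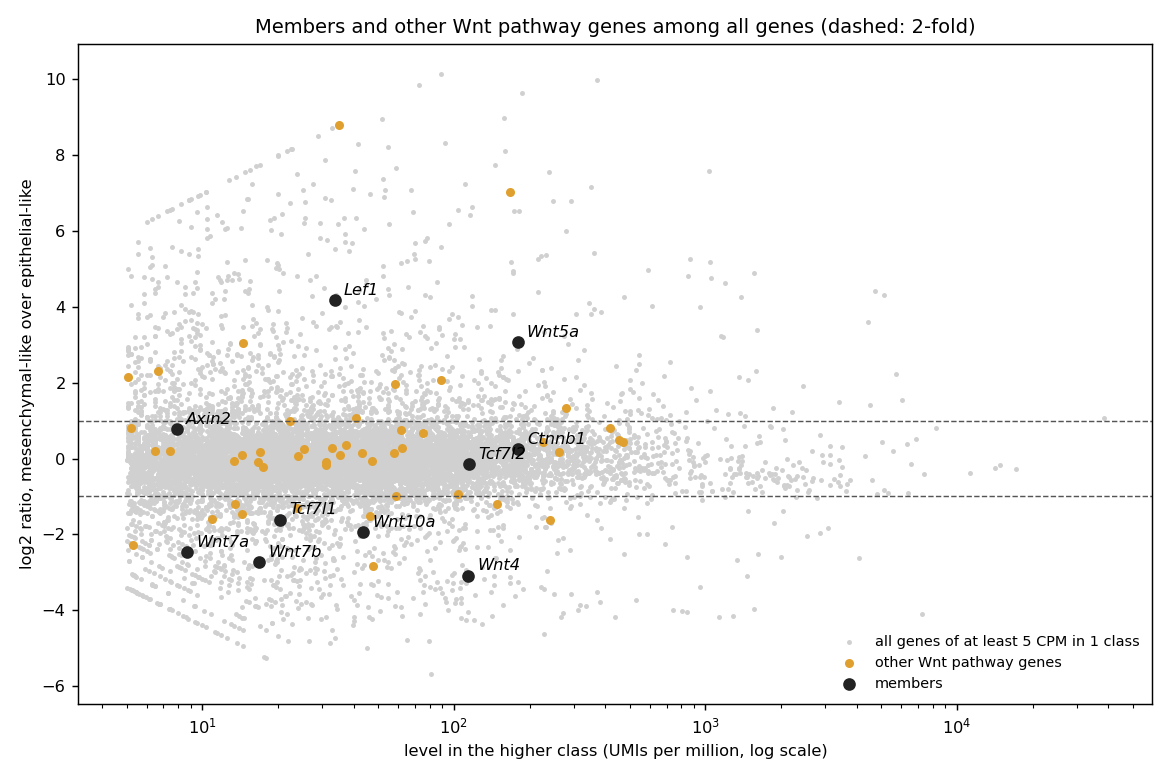
Log2 ratio of the mesenchymal-like to the epithelial-like level (y axis) against the level in the higher class in CPM (x axis, log scale); grey points are all 10729 genes compared, orange the 47 other Wnt pathway genes, black the 10 members, and dashed lines mark 2-fold; genes with fewer than 3 UMIs in a class are drawn at 3. Lef1 and Wnt5a lie above the upper line, Wnt4, Wnt7a, Wnt7b, Wnt10a and Tcf7l1 below the lower one, and Axin2, Ctnnb1 and Tcf7l2 between them.

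Among the ligands, Wnt5a was the one member higher in the mesenchymal-like cells. Wnt5a (chr14:28504750-28527448, plus strand; GENCODE M21 on GRCm38, as for all positions of genes here) gave 1137 UMIs there, 179 CPM (169 to 190.2), and 810 UMIs or 21.4 CPM in the epithelial-like cells. The level was 8.38-fold higher in the mesenchymal-like cells (95% interval 7.65 to 9.18). Every epithelial-like cluster lay below the mesenchymal-like cluster, with no overlap of intervals in 10 of 10. At least 1 Wnt5a UMI was found in 42.0% of mesenchymal-like and 6.06% of epithelial-like cells. The mesenchymal marker Vim was found in 90.4% and 1.40% of the same cells, so the epithelial-like share of Wnt5a stood above that of Vim. Among the epithelial-like clusters, cluster 8 was the exception, with Vim in 10.1% and Wnt5a in 4.19% of its cells.

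Wnt4, a ligand known from kidney and reproductive tract development, ran the other way. Wnt4 (chr4:137277489-137299726, plus strand) stood at 114 CPM (111 to 117) in the epithelial-like cells, from 4314 UMIs, and at 13.4 CPM (10.7 to 16.6) in the mesenchymal-like cells, from 85 UMIs. The ratio was 8.50-fold (6.86 to 10.7). All 10 epithelial-like clusters lay above the mesenchymal-like cluster without overlap. A Wnt4 UMI was found in 27.2% of epithelial-like and 4.02% of mesenchymal-like cells.

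Wnt10a (chr1:74791516-74804179, plus strand), a ligand needed for teeth and skin appendages, followed at lower levels. It stood at 43.6 CPM (41.6 to 45.8) in the epithelial-like and 11.4 CPM (8.89 to 14.3) in the mesenchymal-like cells, 3.84-fold apart (3.03 to 4.93). It was found in 3.59% of mesenchymal-like cells, and after thinning to equal depth in 6.15% of epithelial-like and 1.59% of mesenchymal-like cells. The epithelial-like clusters overlapped the mesenchymal-like one in 3 of 10 cases, and cluster 14, with 67 cells and 1 Wnt10a UMI, had a lower value.

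The closely related ligands Wnt7b and Wnt7a were scarce in both classes and scarcer in the mesenchymal-like cells. Wnt7b (chr15:85535437-85582473, minus strand) gave 636 UMIs or 16.8 CPM (15.5 to 18.2) in the epithelial-like and 16 UMIs or 2.53 CPM (1.44 to 4.10) in the mesenchymal-like cells, a ratio of 6.66 (4.07 to 11.7). Wnt7a (chr6:91363981-91411363, minus strand) gave 330 UMIs or 8.72 CPM (7.81 to 9.72) and 10 UMIs or 1.58 CPM (0.757 to 2.90), a ratio of 5.53 (2.97 to 11.6). The mesenchymal-like levels of both genes rest on few molecules, and no cell of that class held more than 1 UMI of either. For Wnt7b the 10 epithelial-like clusters lay above the mesenchymal-like one without overlap; for Wnt7a 7 of 10 did.

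The low values in the class with less of a gene need a gauge of free RNA, which gives droplets UMIs of genes their cell does not express. In the mesenchymal-like cells the epithelial marker Epcam was found in 10.5% and Krt5 in 8.58% of cells, at 5.67% and 6.28% of their epithelial-like levels. The shares of mesenchymal-like cells with Wnt4, Wnt7a (0.536%), Wnt7b (0.858%), Wnt10a or Tcf7l1 (2.25%) were all below these, so no expression is read from the shares. Epcam and Krt5 are far more abundant in the epithelial-like cells than these 5 genes, which bears on any comparison of shares. Relative to their epithelial-like levels, the same 5 genes stood at 11.8% (Wnt4), 18.1% (Wnt7a), 26.0% (Wnt10a) and 32.6% (Tcf7l1), with an interval of 8.53% to 24.6% for Wnt7b. Each was above the figures for Epcam and Krt5, while the marker Krt14 stood at 15.6%. Which cells made these molecules was not tested.

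The 3 steepest epithelial-like ligand ratios depended on which mesenchymal-like cells were counted. Of the 1864 mesenchymal-like cells, 921 (49.4%) carried UMIs of at least 2 epithelial markers, and among epithelial-like cells 11 carried at least 2 mesenchymal ones. Without all of these cells the Wnt4 ratio was 21.8-fold and the log2 ratio of Wnt7b was -3.59 in place of -2.73. Wnt7a then had no mesenchymal-like UMI left, and was 8.35-fold lower there when set at the limit of 3 UMIs. After the top 10% of doublet scores were left out, the ratios were 15.6, 11.7 and 12.1 for Wnt4, Wnt7b and Wnt7a. With a stricter filter of 1000 genes and 2000 UMIs they were 13.6, 11.3 and 9.78. No direction changed under any of these. The marker filter takes out mesenchymal-like cells for holding epithelial UMIs, so an unchanged direction of these 3 genes says little there.

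Thinning every cell to 1500 UMIs, which left 11228 epithelial-like and 1829 mesenchymal-like cells, put the classes on equal depth. Wnt5a was then found in 22.6% of mesenchymal-like (20.7 to 24.6) and 3.26% of epithelial-like cells (2.94 to 3.60). Wnt4 was found in 15.2% of epithelial-like (14.6 to 15.9) and 1.53% of mesenchymal-like cells (1.02 to 2.21). The share of cells with no Wnt ligand UMI at all was alike, 71.2% of mesenchymal-like (69.1 to 73.3) and 70.3% of epithelial-like cells (69.4 to 71.1). Cells with UMIs of 2 or more different ligands were 2.08% (1.47 to 2.84) and 3.65% (3.31 to 4.02); without thinning they were 8.10% and 12.4%, and cells with no ligand UMI were 47.3% and 51.7%.

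**Figure D3:**
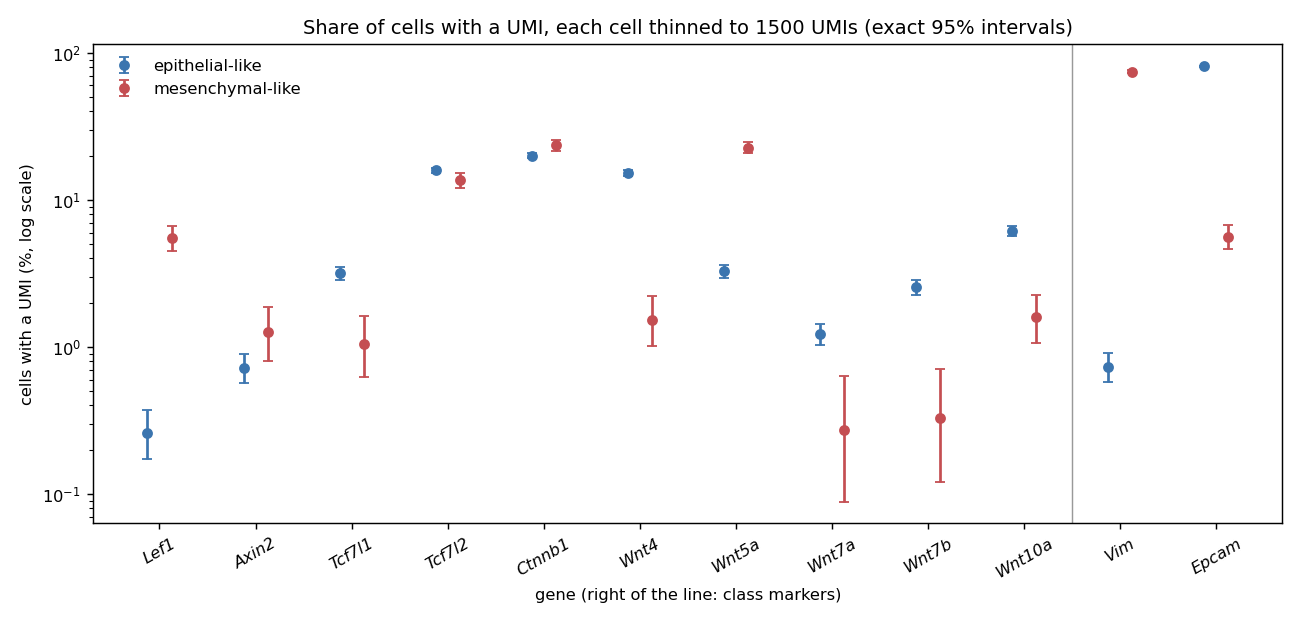
Share of cells with at least 1 UMI of each member (log scale, percent) after thinning each cell to 1500 UMIs, with exact 95% intervals, for epithelial-like (blue) and mesenchymal-like cells (red); Vim and Epcam to the right of the line are markers of the 2 classes. Wnt5a and Lef1 are found in more mesenchymal-like cells, Wnt4, Wnt10a, Wnt7a, Wnt7b and Tcf7l1 in more epithelial-like cells, and Tcf7l2 and Ctnnb1 stand between 13.6% and 23.6% in both.

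The rest of the ligand family ran from undetected genes to Wnt9a and Wnt11, which stood well above the detection limit. A count of 3 UMIs corresponds to 0.0793 CPM in the epithelial-like class, 0.473 CPM in the mesenchymal-like class and 0.0660 CPM over all kept cells. Wnt1, Wnt8a, Wnt8b and Wnt9b had no UMI in any kept cell, so levels up to those limits were not detectable. Wnt3 gave 1 UMI and Wnt2 gave 5, all in mesenchymal-like cells. Wnt2b gave 3, of which 2 were in mesenchymal-like cells and 1 in epithelial-like cells. Wnt6 gave 6, spread over both classes and the unnamed clusters. Wnt3a gave 17, all in epithelial-like cells. Of the ligands outside the members with at least 20 UMIs, Wnt9a stood at 14.3 CPM in epithelial-like and 5.21 CPM in mesenchymal-like cells (2.74-fold, 1.93 to 4.02), and Wnt5b at 5.31 and 1.10 CPM (4.81-fold, 2.29 to 12.1). Wnt11 stood at 22.3 CPM in mesenchymal-like and 11.2 CPM in epithelial-like cells, a ratio of 1.98 (1.63 to 2.40), just short of 2-fold. Wnt10b (1.72 CPM in epithelial-like, 0.473 in mesenchymal-like cells) and Wnt16 (1.35 and 1.74 CPM) were too low to compare.

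Ctnnb1 (chr9:120929216-120960507, plus strand) was close to even between the classes. It stood at 180.2 CPM (169.9 to 191) in the mesenchymal-like cells and 152 CPM (148 to 156) in the epithelial-like cells, a ratio of 1.19 (1.12 to 1.27). It was found in 43.4% and 34.7% of cells. The mesenchymal-like level lay within the range of the epithelial-like clusters, 117 to 251 CPM.

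Axin2 (chr11:108920349-108950783, plus strand) was rare in both classes. It gave 50 UMIs or 7.89 CPM (5.86 to 10.4) in the mesenchymal-like cells and 174 UMIs or 4.60 CPM (3.94 to 5.34) in the epithelial-like cells. The ratio of 1.72 (1.23 to 2.36) did not reach 2-fold, though the value in cluster 4 was above that in each of the 10 epithelial-like clusters and its interval above those of 3. At least 1 UMI was found in 2.68% of mesenchymal-like cells and 1.36% of epithelial-like cells. The epithelial-like share is below that of Vim in those cells (1.40%), the mesenchymal-like share below that of Epcam (10.5%), and no single-cell reading is made from either. No Axin2 UMI was found in 4 epithelial-like clusters, numbers 6, 11, 12 and 14; the limits of 3 UMIs there were 2.10, 6.81, 8.88 and 22.0 CPM.

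Lef1 (chr3:131110471-131224356, plus strand), whose product is the TCF/LEF family member tied in many tissues to loss of epithelial character, had the widest ratio of the members among all cells of the 2 classes; without the cells carrying markers of both, Wnt4 was wider (21.8-fold, against 19.7-fold for Lef1). It gave 213 UMIs or 33.6 CPM (29.3 to 38.4) in the mesenchymal-like cells and 71 UMIs or 1.88 CPM (1.47 to 2.37) in the epithelial-like cells, 17.9-fold apart (13.6 to 23.8). The value in cluster 4 was above all 10 epithelial-like clusters without overlap of intervals. Lef1 was found in 10.3% of mesenchymal-like and 0.568% of epithelial-like cells, or in 5.47% and 0.258% after thinning. The epithelial-like share is below the 1.40% of Vim, a far more abundant transcript, so no expression is read from the share. Relative to its mesenchymal-like level, Lef1 stood at 5.58% in the epithelial-like cells (4.21 to 7.34), above the 0.526% of Vim and the 0.916% of Col1a1. Which cells made these Lef1 molecules was not tested.

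Tcf7l1 (chr6:72626378-72789254, minus strand) was the TCF/LEF gene higher in the epithelial-like cells by most, at 20.3 CPM (18.9 to 21.8) from 769 UMIs, against 6.63 CPM (4.78 to 8.96) from 42 UMIs. The ratio was 3.07 (2.25 to 4.29), and it was 2.99 when the dividing cluster with mesenchymal markers was added to the mesenchymal-like class. In 9 of 10 epithelial-like clusters the interval lay above that of cluster 4. Tcf7, a family relative outside the members, went the same way, at 13.5 CPM in epithelial-like and 5.84 CPM in mesenchymal-like cells (2.30-fold, 1.65 to 3.31).

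Tcf7l2 (chr19:55741820-55933654, plus strand), the most abundant of the family, was even between the classes, at 115 CPM (111 to 118) in the epithelial-like and 104 CPM (95.9 to 112) in the mesenchymal-like cells, a ratio of 1.11 (1.02 to 1.20). It was found in 28.1% and 27.8% of cells. Counts at the 3' end do not separate the isoforms of Tcf7l2 or Lef1, some of which lack the β-catenin binding end.

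Of the 4 Lef1 promoters in the table, the one at the first start site is shown, since Lef1 had the widest ratio in the main setting, with the part of the Wnt4 promoter that held a motif match. For 7 members, 12 RefSeq promoters (GRCm38.p6) were searched over the 250 bases before each start site. The TCF core CTTTGAT, on both strands, was in 0 of 12, against 3.21% of all 32851 promoters of the same length. The E-box CACCTG, the motif read by SNAI and ZEB repressors, on both strands, was in 1 of 12, against 17.2% of all. That match lies 15 bases before the RefSeq start site of Wnt4, and capitals mark it. It falls inside the gene as placed by GENCODE M21 above, whose start lies further upstream. Wnt5a, Wnt7b and Wnt10a had no entry in the table. A match is a description of letters, not of binding.
Lef1, chr3:131110047-131110296, plus strand: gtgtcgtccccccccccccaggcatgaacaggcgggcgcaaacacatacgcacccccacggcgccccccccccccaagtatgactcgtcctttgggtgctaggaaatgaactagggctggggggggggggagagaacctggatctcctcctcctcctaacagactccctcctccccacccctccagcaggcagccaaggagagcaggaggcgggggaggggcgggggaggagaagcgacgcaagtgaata
Wnt4, chr4:137277610-137277634, plus strand: gcgcggcgccCACCTGccgccccga

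Within the epithelial-like class the ligands varied from cluster to cluster. Wnt5a ranged 4.97-fold, with 12.6 CPM in cluster 6 as its lowest level and 62.6 CPM in cluster 9 as its highest. Wnt4 ranged as widely, lowest in cluster 11 (34.0 CPM) and highest in cluster 14 (169 CPM). Wnt10a ranged 9.27-fold, between 7.35 CPM in cluster 14, from 1 UMI, and 68.1 CPM in cluster 11, and Wnt7b ranged 3.37-fold. Wnt7a had no UMI in cluster 14, so no range is given. Tcf7l1 ranged 2.38-fold, from 15.4 CPM in cluster 6 (9.65 to 23.3) to 36.7 CPM in cluster 14, from 5 UMIs (11.9 to 85.7). These intervals overlap, so this range is not set apart from counting error. Ctnnb1 ranged 2.15-fold. Of 130 pairs of neighbours in the order of the 14 clusters, gene by gene, 4 had intervals that did not overlap, so most adjacent ranks cannot be told apart at this depth. The gaps were for Tcf7l2 between cluster 10 and the next lower cluster and between clusters 4 and 3, for Ctnnb1 between cluster 5 and the next lower cluster, and for Wnt5a between cluster 13 and the next lower one.

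Each epithelial-like cluster was set against the other epithelial-like cells by the same 2-fold rule. In cluster 1, the largest, 1 member passed it, with 5.45% of genes past it overall: Wnt5a was 2.11-fold lower there, at 13.0 CPM. In cluster 2, led by Krt7 and Sorbs2, 1 member passed (7.04% of genes), and Wnt5a was 2.82-fold higher (2.44 to 3.25), at 45.6 CPM. In cluster 3, the dividing cells led by Ccna2 and Nusap1, 0 members passed (7.57%).

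Cluster 5, led by Ltf, Gabrp and Lcn2, had 1 member past the rule (9.72% of genes): Wnt10a, 2.55-fold lower, at 18.3 CPM (14.3 to 23.1). Cluster 6, led by Krt16 and Sncg, had 2 (10.4%): Wnt10a was 2.20-fold lower, at 20.3 CPM, and Wnt7a 3.20-fold lower, from 4 UMIs. In cluster 8 no member passed (10.0%). Cluster 9, with 164 cells, had 3 (18.2%): Wnt5a 2.99-fold higher (1.94 to 4.41), Wnt7b 2.03-fold higher (1.10 to 3.43), and Wnt7a 2.24-fold higher from 8 UMIs, with an interval of 0.959 to 4.47 that includes no difference. Cluster 11, with 118 cells led by Ly6c1 and Pate14, had 2 (19.0%): Wnt4 was 3.38-fold lower, at 34.0 CPM (19.0 to 56.1), and Wnt7b 2.05-fold higher (1.14 to 3.41). Cluster 12, led by interferon-response genes (8.33%), and cluster 14, led by hypoxia-response genes (19.5%), had no member past the rule, with 3 UMIs standing for 8.88 and 22.0 CPM there.

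**Figure D4:**
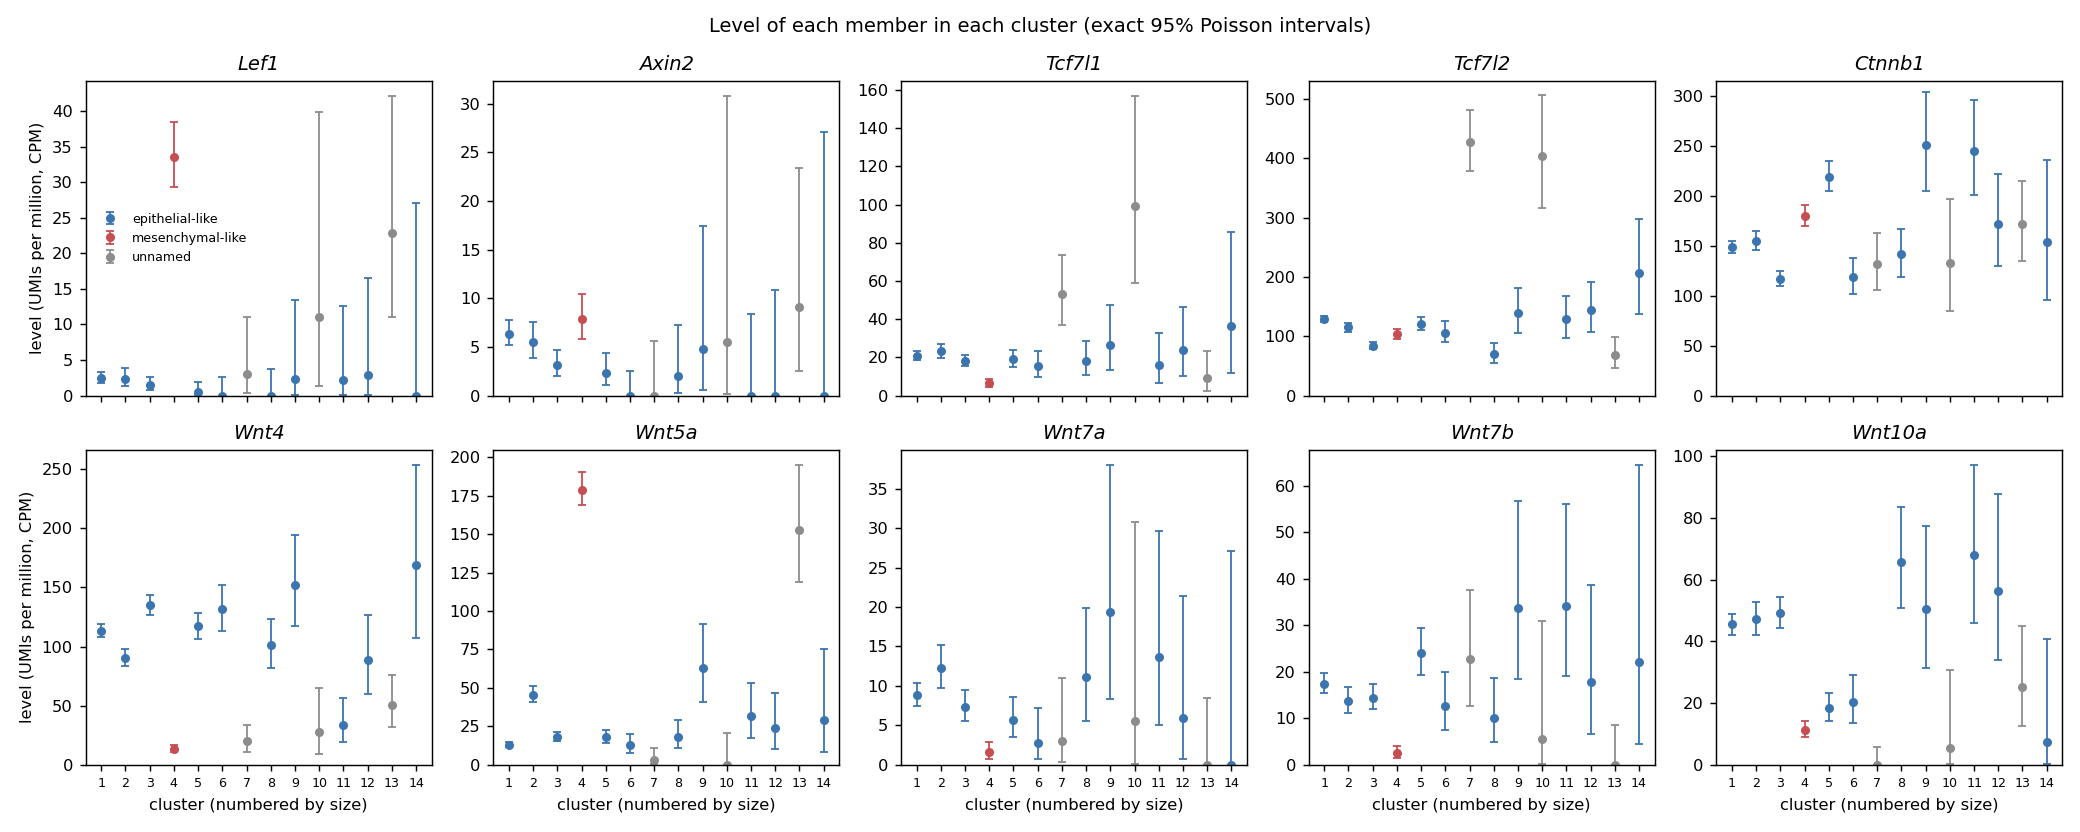
Level of each member in CPM (y axis, from 0, scaled per gene) in the 14 clusters (x axis, numbered by size), with exact 95% Poisson intervals; blue is epithelial-like, red mesenchymal-like, grey unnamed. Lef1 and Wnt5a are highest in clusters 4 and 13, Wnt4 and Wnt7b are low in cluster 4, and Tcf7l2 and Tcf7l1 are highest in the shallow clusters 7 and 10.

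The 3 unnamed clusters were set against the epithelial-like cells. Cluster 13 held 97 dividing cells with a median of 4495 UMIs and with both marker sets, 1416 CPM of mesenchymal and 1427 CPM of epithelial markers. In it 5 of 10 members passed the rule, with 22.8% of genes overall. Wnt5a stood at 153 CPM (119 to 195) and Lef1 at 22.9 CPM, 7.16-fold (5.49 to 9.19) and 12.2-fold (5.60 to 23.7) above the epithelial-like cells. Wnt4 stood at 50.3 CPM and Tcf7l1 at 9.15 CPM, 2.27-fold and 2.22-fold lower, the latter from 4 UMIs. Wnt7b had no UMI, at least 2.45-fold lower. Whether these cells are single cells or doublets was not tested.

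Clusters 7 and 10 were shallow, with medians of 1164 and 1279 UMIs, 10.6% and 9.34% mitochondrial UMIs, and 114441 and 65484 CPM of the nuclear RNA Malat1. Past the rule were 5 members in cluster 7 (60.7% of genes overall) and 4 in cluster 10 (60.4%). Tcf7l2 stood at 427 CPM (379 to 480.4) and 403 CPM (316 to 507), 3.73-fold and 3.52-fold above the epithelial-like cells, and Tcf7l1 at 53.1 and 99.4 CPM, 2.61-fold and 4.89-fold above. Wnt4 was lower, at 19.7 and 27.6 CPM. Wnt10a had no UMI in cluster 7, 9.60-fold lower when set at the limit of 3 UMIs (interval of the ratio 0 to 0.128). It had 1 UMI in cluster 10, while Wnt5a had 2 UMIs in cluster 7 and none in cluster 10. The part of depth, mitochondrial share and Malat1 in these values was not tested; no source used here says whether introns were counted.

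Other genes of the pathway were taken from lists of 81 genes outside the members. Of these, 70 had a UMI and 47 reached the level set for comparison. Of the 47, 9 were higher in the mesenchymal-like cells and 9 in the epithelial-like cells, 18 of 47 past 2-fold, beside 23.1% of all genes. Their median log2 ratio was 0.18.

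For the release of Wnt proteins, Porcn, which attaches their lipid, stood at 46.4 CPM in epithelial-like and 16.3 CPM in mesenchymal-like cells (2.86-fold, 2.34 to 3.52). Wls, which carries them to the surface, stood at 238 and 417 CPM, a ratio of 1.75 the other way and short of 2-fold. Of 11 receptor genes compared, 3 were higher in the mesenchymal-like and 2 in the epithelial-like cells, beside 11.4% and 11.7% of all genes. The WNT5A receptors split: Ror2 stood at 6.63 CPM in mesenchymal-like and 1.35 CPM in epithelial-like cells (4.92-fold, 3.19 to 7.55), and Ror1 at 6.63 and 47.6 CPM (7.18-fold lower in mesenchymal-like cells, 5.29 to 10.00). Ryk (279.8 and 111 CPM, 2.53-fold) and the Frizzled gene Fzd7 (58.1 and 14.8 CPM, 3.92-fold) were higher in the mesenchymal-like cells, and the co-receptor gene Lrp5 (9.63 and 23.8 CPM, 2.47-fold) was higher in the epithelial-like cells.

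A list of inhibitors that are secreted or sit at the cell surface held 14 genes, of which 5 were compared. Of these 5, 3 passed as higher in the mesenchymal-like cells, where 11.4% of all genes did. The other 9 were too low to compare, among them Sfrp1, with 66 UMIs in epithelial-like cells and 1 in mesenchymal-like cells. Kremen1 stood at 30.9 and 29.2 CPM in epithelial-like and mesenchymal-like cells. Dkk2, whose product binds LRP co-receptors, gave 1061 UMIs or 167 CPM (158 to 178) in the mesenchymal-like and 49 UMIs or 1.30 CPM in the epithelial-like cells, 129-fold apart (97.1 to 176). Dkk3 stood at 88.7 and 21.0 CPM (4.23-fold). Sfrp4, which encodes a secreted Frizzled-related protein, stood at 34.9 CPM and at 0.0529 CPM from 2 UMIs, a ratio of 659.8 with a counting interval of 180.5 to 5482. Rspo3, a secreted enhancer of Wnt signals, was also higher in the mesenchymal-like cells, at 14.5 and 1.77 CPM (8.20-fold, 5.92 to 11.4). Dkk2 was itself a leading gene of cluster 4, although held out of the clustering.

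Of 11 intracellular genes compared, 1 was higher in the mesenchymal-like and 1 in the epithelial-like cells. Of 12 nuclear genes compared, Lef1 and Tcf7l1 among them, the counts were 2 and 3. Over all genes the shares were 11.4% and 11.7%. The scaffold gene Dvl1 was higher in the mesenchymal-like cells (40.6 and 19.3 CPM, 2.10-fold) and the β-catenin inhibitor gene Ctnnbip1 in the epithelial-like cells (64.6 and 148 CPM, 2.29-fold). Of the Groucho corepressor genes, Tle2 was higher in the mesenchymal-like cells (5.05 and 1.14 CPM, 4.44-fold) and Tle4 in the epithelial-like cells (3.63 and 10.9 CPM, 3.01-fold). Of 9 target genes compared, Lef1 passed as higher in the mesenchymal-like cells, where 11.4% of all genes did. Tcf7 and Ccnd1 (77.8 and 240.4 CPM, 3.09-fold) passed as higher in the epithelial-like cells, where 11.7% of all genes did. The targets Nkd1 and Sp5 had no UMI in either class, and Lgr5 had 2 UMIs in the mesenchymal-like and 15 in the epithelial-like cells.

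The genes most like each member were found by the correlation of log2(CPM + 1) over the 12 clusters of at least 100 cells. The clusters share 1 library and differ in depth, so these are descriptions. Each named gene was picked as among the highest of many, so a high value is not unusual. Lef1 and Axin2 had at most 2 UMIs in most of these clusters, so their values rest on few molecules there. The closest to Wnt5a were Nbl1 (Pearson r 0.951), Fxyd5 and Srpr, and the closest to Lef1 were Fkbp7 (0.914), Gnb4 and Scpep1. The closest to Wnt4 were Foxq1 (0.970), Lypd3 and Pnrc2, to Wnt10a Leprot (0.990), Ywhah and Ruvbl2, to Wnt7a Zfp664 (0.911), Pdgfb and Pxn, and to Wnt7b Lcmt1 (0.878), Nectin4 and Mal2. For Tcf7l1 they were Sh3pxd2b (0.982), Kank1 and Dip2b, for Tcf7l2 Btrc (0.989), Pik3c2a and Zfp950, for Ctnnb1 Ifnar2 (0.865), Asah1 and Tmod3, and for Axin2 Ptpn23 (0.881), Mef2b and Fgfrl1.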

How the data were processed

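The series' labels describe 3 libraries of 1 PC culture (gene expression, barcode and scar); the deposited matrix could not be tied to one of them and was treated as 1 pooled sample with no replicates. It holds UMI counts per gene and barcode as deposited, and the header names CellRanger 8.0.1 as the software; Cell Ranger, Scanpy 1.8.2 and mm10 are named in the submitters' processing notes. No source used here gives the annotation or says whether introns were counted. Positions come from GENCODE M21, in which 32235 of 32287 feature IDs were found.

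Barcodes with 500 or more genes, 1000 or more UMIs and no more than 20% mitochondrial UMIs were kept. Counts were scaled to 10000 per cell, log-transformed and clustered (scanpy 1.11.5, igraph 0.11.9: 2000 variable genes, 30 principal components, 15 neighbours, Leiden resolution 0.6), with 91 genes held out of the features, which include the members and the other Wnt pathway genes. A cluster of at least 50 cells was mesenchymal-like with at least 3 of 12 mesenchymal markers in 25% of its cells and a summed level at least 1.5 times that of the epithelial markers, and epithelial-like with at least 8 of 12 epithelial markers and no mesenchymal one in 25%. This scoring was set after the clusters were seen. Scrublet marked 1 of 14925 cells (0.00670%), which is no working call, so doublets were not removed.

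Summed counts gave CPM with exact Poisson intervals, ratios with exact conditional binomial intervals and shares with Clopper-Pearson intervals, all at 95%. With 1 sample there is no test and no p-value. For the 2-fold rule, genes with fewer than 3 UMIs in a set of cells were set to 3; ratios printed from 1 or 2 UMIs are the genes' own. On simulated counts of 10114 genes the rule recovered 196 of 200 changed genes (98.0%). All planted changes were larger than 2-fold and the counts held Poisson error only. The recovery therefore describes counting error and not the spread between cells or cultures.

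The members, lists, motifs and rules were chosen with earlier results of these data known, and the E-box was added after the TCF core gave no match. Named genes are the members, every listed pathway gene past 2-fold (up to 12 each way by ratio), ligands with at least 20 UMIs, the 3 genes most like each member (among genes of at least 10 CPM, for members with at least 200 UMIs), the 5 leading genes of a class, and Vim, Col1a1, Epcam and Krt5. Rarer ligands, Wls, Sfrp1, Kremen1, Lgr5, Nkd1, Sp5, Krt14, Malat1 and genes that lead clusters were named after their values were seen. A total of 16 alternatives were tried, 2 of them added after seeing the data.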

Additional observations from a re-analysis of the deposited data

Results flagged for a closer look

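The 3191 barcodes removed by the filters (17.6% of 18116, with a median of 696 UMIs and 12.1% mitochondrial UMIs) enter no comparison above, yet all 10 members were found in them above the 1.32 CPM that 3 UMIs would give. Tcf7l2 stood at 377 CPM (exact 95% Poisson interval 352 to 403) and Tcf7l1 at 50.5 CPM (41.7 to 60.6), above their levels in the epithelial-like cells (115 and 20.3 CPM). Ctnnb1 stood at 140.1 CPM. Wnt4 stood at 27.7 CPM (21.3 to 35.4), Wnt5a at 10.1 CPM, Wnt7b at 8.78 CPM, and Wnt10a, Wnt7a and Lef1 at 5.71 CPM each, from 13 UMIs apiece. Axin2 stood at 3.07 CPM from 7 UMIs. What these barcodes hold was not tested.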

How the results depend on the processing

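In 16 alternative settings, no member's ratio changed direction. Settings that changed only the fold or the minimum level left the ratios and sums as they were, so they could not change a direction. Leaving out cells with markers of both classes removes mesenchymal-like cells for their epithelial UMIs. It therefore says little about the direction of genes higher in epithelial-like cells. Of the 10 members, 7 passed the fold rule in each, except 6 with a minimum of 10 CPM in the higher class, where Wnt7a dropped out. Over all genes compared, 23.1% passed in the main setting and 21.4% with the 10 CPM minimum. The lowest share was 13.6%, at 3-fold, and the highest was 29.4%, with no minimum level. Of the other pathway genes 18 passed; 11 passed at 3-fold and 26 with no minimum level, which follows from the stricter and the looser rule themselves. The summed ligands gave a log2 ratio between -0.02 and 0.08, and the summed TCF/LEF factors between -0.08 and 0.04. Without the cells that carry markers of both classes, which left 943 mesenchymal-like cells, the log2 ratio of Wnt4 was -4.45 against -3.09. No paired analysis was possible because there is 1 sample with no replicates. Depth limits the rare genes most: Wnt7a and Wnt7b rest on 10 and 16 mesenchymal-like UMIs.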
